A study of Saccharomyces cerevisiae with 12 samples.

Results

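Untreated Δscd6 yeast was compared with untreated wild type yeast, 2 libraries a side, over all 6352 genes of the authors' deposited table for that pair, which is 1 of 7 such tables of the same 6352 genes. Δscd6 is BY4741 with SCD6 deleted and the wild type is BY4741 itself, a haploid MATa laboratory strain of Saccharomyces cerevisiae in which HIS3, LEU2, MET17 and URA3 are disrupted in all strains, so these alleles are shared by both groups. Their titles give both groups as untreated, and the growth text gives rich glucose medium and an optical density at 600 nm of 0.4 to 0.5. The protocol text of every sample, these included, also mentions azide, so the titles alone mark them as untreated. The other groups used beside them were Δscd6 and wild type after 30 minutes in 0.5% sodium azide, and Δsbp1, BY4741 lacking SBP1, without and with azide, each with 2 libraries. A deletion strain was labelled by strain name alone, so the number of clones is not known. The labels do not say that libraries of a group came from separate cultures, so that a p-value covers no more than the spread of these libraries, which may be technical.

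Scd6 is an mRNA-binding protein with an Sm-like domain and RGG repeats. It binds the translation initiation factor eIF4G, represses translation, and stimulates decapping together with Dcp2, Dhh1 and Edc3. Removal of the cap exposes an mRNA to the exonuclease Xrn1, so a decapping activator can set the level of the mRNAs it acts on, while a pure repressor of translation need not.

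Each gene had a deposited fold change with its p-value, raw and adjusted (Benjamini-Hochberg over 6352 genes), and a mean normalised count over all 12 libraries that ran from 5.55 to 371264 with a median of 589. A gene was counted as changed at an adjusted p under 0.05. Group means in normalised counts were rebuilt from the fold changes and that mean, and are called levels below. No value per library and no depth was held, so a level has no SD and no count-based interval. A standard error (SE) was implied from each fold change and its p-value, with a median of 0.243 on the log2 scale. At that SE a change of 0.783, or 1.72-fold, was the smallest that passed. RNA was extracted from whole cultures, so that fewer cells of a type and less RNA per cell cannot be told apart.

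SCD6 (YPR129W) had a level of 13.6 in Δscd6 and 1054 in the wild type, by the authors' deposited table. The level in Δscd6 was 1.29% of that in the wild type (log2 change -6.28, SE 0.37, adjusted p = 3.4e-62). The labelled deletion was thus seen in the data, and the neighbouring genes gave no call: ANT1, a peroxisomal ATP carrier, gave -0.43 (adjusted p = 0.263) and NAT3, a catalytic subunit of an N-terminal acetyltransferase, -0.08 (0.896) in the authors' deposited table. SBP1, which encodes another RGG-motif repressor of translation, gave -0.41 (0.285), with levels of 3294 in Δscd6 and 4380 in the wild type by the authors' deposited table. HIS3, the auxotrophic marker analysed here, gave 0.39 (0.547) in the authors' deposited table. Of the genes that define MATa cells, STE2 had levels of 8447 in Δscd6 and 6943 in the wild type, MFA1 1103 and 665, and MFA2 4564 and 2091, by the authors' deposited table. The α-cell receptor gene STE3 had levels of 52.1 in Δscd6 and 98.0 in the wild type in the authors' deposited table, and none of these 4 passed the test. SAG1, the α-agglutinin gene, had higher levels than STE3, at 518 in Δscd6 and 435 in the wild type. It did not pass either (0.25, adjusted p = 0.62).

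In all, 160 genes (2.52% of 6352) passed the test in the authors' deposited table, of which 92 (1.45%) were higher and 68 (1.07%) lower in Δscd6. At an unadjusted p under 0.05 there were 1206 genes. The changes were at least 2-fold for 58 rises and 34 falls, and at least 8-fold for 18 rises and 8 falls, in the authors' deposited table. Over all genes the median log2 change was -0.014, and the middle 90% of genes lay between -0.67 and 0.732 in the authors' deposited table. The direction split depended on scaling. The rebuilt levels summed to 17145795 in Δscd6 and 14144426 in the wild type, and scaling both to equal totals lowers every log2 change by 0.278. That scaling gave 63 rises and 1181 falls, against the 92 and 68 of the authors' own normalisation. ANT1 (-0.70, adjusted p = 0.013) and SBP1 (-0.69, 0.016) were then among the falls, by a normal test on the implied SE.

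**Figure D1:**
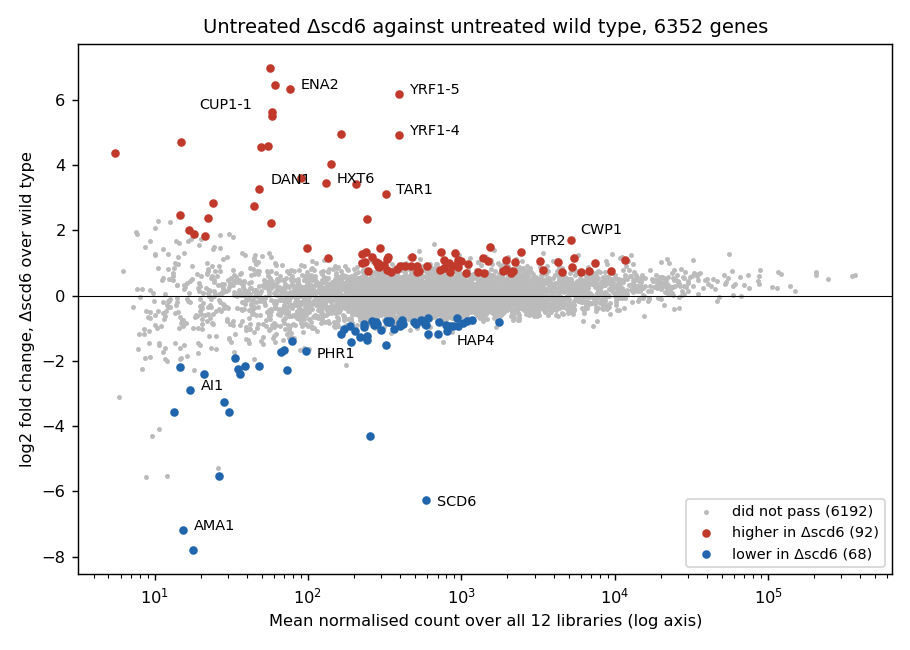
Log2 fold change of untreated Δscd6 over untreated wild type (vertical axis) against the mean normalised count over all 12 libraries (log axis), 1 point per gene. Red points are the 92 genes that were higher and blue points the 68 that were lower at the authors' adjusted p under 0.05. YRF1-5, CUP1-1 and ENA2 are among the highest points.

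The rises of over 8-fold lay mostly in repeated parts of the genome. Of the 92 rises, 25 (27.2%) belonged to 5 loci that were grouped after their values were seen: the Y' elements and the right end of chromosome XII, the CUP1 array, the ribosomal DNA, the ENA cluster, and the pair HXT6 and HXT7. Their log2 changes ran from 0.78 to 6.98 in the authors' deposited table. The other 67 rises ran from 0.68 to 3.26 with a median of 1.01, and among the 62 of them with a mean normalised count of at least 100 the highest was 1.72.

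YRF1-5 and YRF1-4 encode helicases within Y' elements, the repeats next to many yeast telomeres. YRF1-5 had levels of 2235 in untreated Δscd6 and 30.7 in untreated wild type cells by the authors' deposited table (log2 change 6.18, SE 0.37, adjusted p = 1.2e-58). Its level was 18.7 in azide-treated Δscd6 and 16.7 in azide-treated wild type cells, and 37.7 in untreated Δsbp1 cells, rebuilt from the authors' deposited tables. YRF1-4 had levels of 2136 in untreated Δscd6 and 69.7 in untreated wild type cells in the authors' deposited table (4.94, adjusted p = 1.7e-49). Among the 6 groups both genes had their highest level in untreated Δscd6. The helicase-like reading frames YLL067C (4.95; 907 in Δscd6, 29.3 in the wild type) and YLL066C (3.42; 993 and 92.7), at the left end of the same chromosome, also rose in the authors' deposited table. Small frames beside them rose too, with YLR466C-A at 6.98, YLR467C-A at 6.45, YLL067W-A at 4.72, YLR463C at 2.86, YLR464W at 2.75 and BSC3 at 1.84 in the authors' deposited table. The wild type levels of YLR466C-A, YLR467C-A and YLL067W-A were only 2.57, 3.97 and 3.04, so the size of their folds is uncertain. Another Y' helicase gene, YRF1-2, gave 0.31 (adjusted p = 0.77) in the authors' deposited table. The list of 14 subtelomeric YRF1 and COS genes had 2 rises and no fall (14.3% called, beside 2.52% of all genes). Its median was 0.03 in the authors' deposited table.

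CUP1-1 and CUP1-2 are copies of the copper-binding metallothionein gene in a tandem array on chromosome VIII. CUP1-1 had levels of 302 in untreated Δscd6 and 6.11 in untreated wild type cells by the authors' deposited table (5.63, SE 0.54, adjusted p = 4.2e-22). CUP1-2 had levels of 215 and 9.20 in the authors' deposited table (4.55, adjusted p = 1.2e-16), in the same order of strains. CUP1-1 and CUP1-2 thus had low wild type levels, so the size of their folds is uncertain. The other 3 frames of the array, YHR052W-A (5.52), YHR054W-A (4.59) and YHR054C (2.24), rose with them in the authors' deposited table, and YHR052W-A had nearly the same level as CUP1-1 in each group. RSC30, a chromatin remodeller gene beside the array, gave 0.10 (0.89) in the authors' deposited table.

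In the ribosomal DNA all of YLR154C-G (4.03; levels 693 in Δscd6 and 42.3 in the wild type), YLR154W-A (2.47), YLR154W-B (3.61), YLR154W-E (4.36) and TAR1 (3.12) rose in the authors' deposited table. YLR154W-E had levels of only 23.5 in Δscd6 and 1.14 in the wild type, so the size of its fold is uncertain. TAR1 lies opposite the 25S ribosomal RNA gene and had levels of 1355 in untreated Δscd6 and 156 in untreated wild type cells by the authors' deposited table (SE 0.70, adjusted p = 0.00164). Its levels in azide were 127 in Δscd6 and 132 in the wild type, again from the authors' deposited tables. RRT15, a small frame elsewhere on chromosome XII, went the other way in the authors' deposited table, with levels of 0.122 in Δscd6 and 27.1 in the wild type (adjusted p = 0.00319). With 1 group near 0, no fold is given for it.

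ENA1, ENA2 and ENA5 are tandem genes for plasma membrane ATPases that export sodium. ENA2 had levels of 408 in Δscd6 and 5.01 in the wild type in the authors' deposited table (6.35, SE 0.66, adjusted p = 2.4e-19), and 28.8 in untreated Δsbp1. Its wild type level was low, so the size of its fold is uncertain. ENA1 (0.92, adjusted p = 0.0131) and ENA5 (0.78, adjusted p = 0.0253) also rose in the authors' deposited table, and whether the 3 genes differ in their change was not tested. The high-affinity glucose transporter genes HXT6 and HXT7 are near-identical neighbours. HXT6 had levels of 436 in Δscd6 and 39.6 in the wild type in the authors' deposited table (3.46, SE 0.38, adjusted p = 3.6e-17), and HXT7 had 520 and 103 (2.34, SE 0.59, adjusted p = 0.00839). HXT7 was also higher in untreated Δsbp1, at a level of 437, with a log2 change of 2.08 in the authors' deposited table for that strain. Both comparisons use the same untreated wild type libraries.

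**Figure D2:**
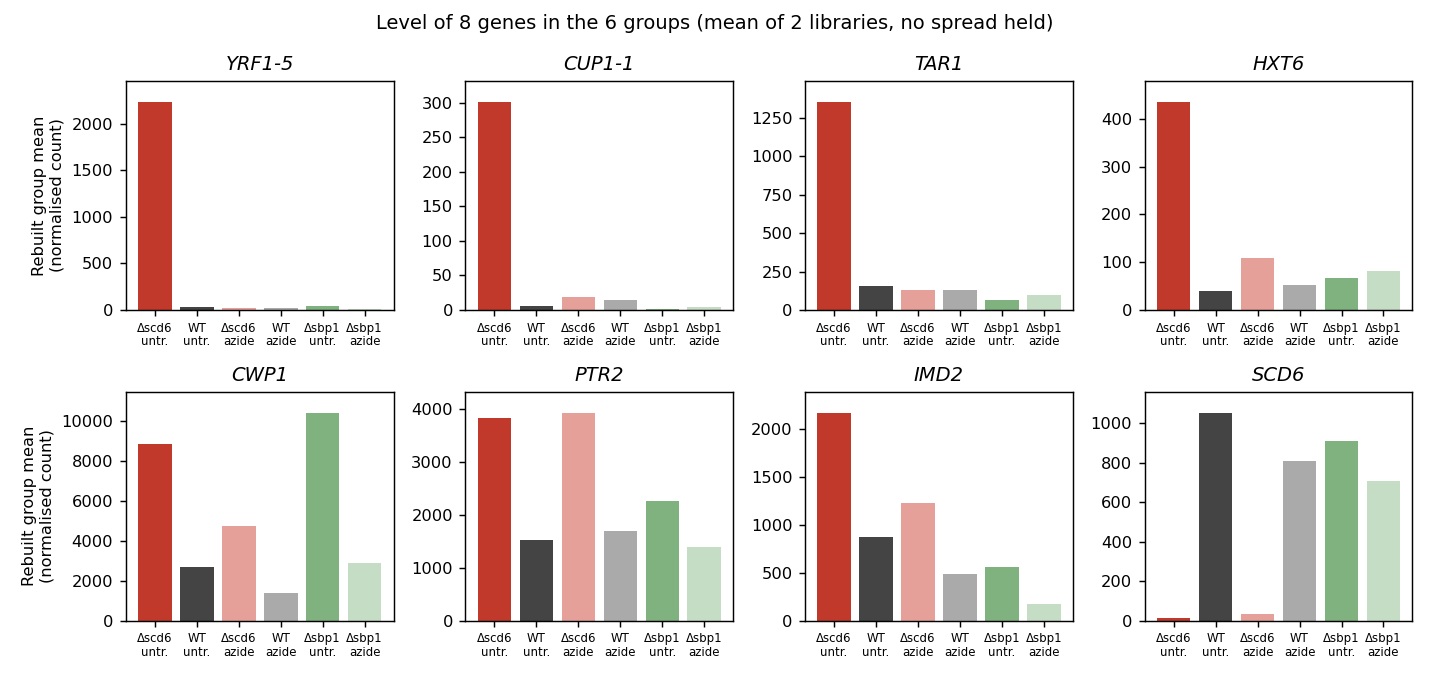
Rebuilt group means, in normalised counts, of 8 genes in the 6 groups, from left to right untreated Δscd6 and wild type, azide-treated Δscd6 and wild type, and Δsbp1 untreated and with azide (bars start at 0 and each panel has its own scale). Each bar stands for 2 libraries without a spread; YRF1-5, CUP1-1, TAR1 and HXT6 are high in untreated Δscd6, at 2235, 302, 1355 and 436, while CWP1, PTR2 and IMD2 are higher in Δscd6 than in the wild type in both conditions.

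Reads from such loci match more than 1 place, and the sources used here do not give how the counting handled them, so the split between copies is uncertain. In the R64 reference a gene was called repeated where at least 50% of its 31-base windows occur again in the genome. Repeated genes made up 18 of the 77 rises found in that reference (23.4%), 1 of 64 falls (1.56%) and 121 of all 5764 matched genes (2.10%). Without them 131 genes were changed, 69 of them higher and 62 lower. Frames not found in that reference have no repeat value and were kept. The 69 rises thus still hold frames of these loci, such as YLR466C-A, YHR052W-A and YLR154W-B. In azide, none of the 25 genes of these loci passed as higher in Δscd6 than in the wild type in the authors' deposited table, and YHR054C fell (-1.35, adjusted p = 0.0242). Their azide values ran from -1.35 to 3.08, and HXT6 (1.06, adjusted p = 0.0657) and HXT7 (1.60, 0.11) lay above 0 without passing. The strain difference in azide was tested against that in untreated cells, from independent libraries. It differed past the test in 18 of the 25, beside 4.86% of all 5841 genes tested. The mean level was highest in untreated Δscd6 among the 6 groups for 24 of them. These genes were grouped after they were seen to rise in untreated Δscd6, so both counts follow in large part from that choice. Genes numbered among the 10 outermost of a chromosome arm held 16 rises in 292 (5.48%), against 76 in 6050 elsewhere (1.26%), and 5 falls (1.71%) against 60 (0.992%). The 16 rises include the 10 of the Y' elements and the right end of chromosome XII, so the share at chromosome ends rests mostly on that locus.

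The rises outside these loci included genes of the cell wall, of mating and of small-molecule uptake. The list of 51 cell wall genes had 3 rises and no fall (5.88% called, beside 2.52% of all genes). It had 43 members above 0 and a median of 0.56 in the authors' deposited table, against -0.01 over all genes. That median was 0.29 with totals made equal and 0.58 with the trend with gene length (described later) removed. CWP1, a mannoprotein of the wall, had levels of 8887 in Δscd6 and 2700 in the wild type in the authors' deposited table (1.72, SE 0.25, adjusted p = 2.9e-09). FIT1, a wall mannoprotein that retains siderophore-bound iron, rose by 1.19 (adjusted p = 6.4e-05) in the authors' deposited table. Its levels were 853 in Δscd6 and 374 in the wild type. It was the 1 rise in 33 iron genes (3.03% called, beside 2.52% of all genes). KRE6, needed for β-1,6-glucan, rose by 0.71 (adjusted p = 0.029) in the authors' deposited table. Abundant wall genes that did not pass in the authors' deposited table included SED1 (1.27, adjusted p = 0.229), CWP2 (1.10, 0.15) and CIS3 (1.02, 0.0794). The anaerobic mannoprotein gene DAN1 had levels of 134 in Δscd6 and 13.9 in the wild type in the authors' deposited table (3.26, SE 0.55, adjusted p = 6.8e-07). TIR4, of the same kind, rose by 1.12 (adjusted p = 0.0173) in the authors' deposited table. In the hypoxic list of 32 these were the rises and HAP4 was the fall (9.38% called, beside 2.52% of all genes), and the median was 0.27 in the authors' deposited table. PAU13 was the single rise of 10 PAU genes (10% called, beside 2.52% of all genes). It gave 2.38 (adjusted p = 0.0112) in the authors' deposited table, at a level of 26.8 in Δscd6 and 5.16 in the wild type.

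Of 38 genes of the mating type and the pheromone response, 3 rose and none fell in the authors' deposited table (7.89% called, beside 2.52% of all genes). The list median was 0.05 (-0.23 with totals made equal). AGA1, the anchor of a-agglutinin, had levels of 3820 in Δscd6 and 1364 in the wild type in the authors' deposited table (1.49, SE 0.38, adjusted p = 0.0102). AGA2, its adhesive subunit, rose by 1.17 (adjusted p = 0.0409), and the mating adhesin gene FIG2 by 1.04 (adjusted p = 0.0174), in the authors' deposited table. FUS1, a standard target of the pheromone pathway, gave 0.39 (0.372) in the authors' deposited table. MSB2, a mucin-like sensor at the head of the filamentous growth pathway, rose by 1.06 (adjusted p = 0.00839) in the authors' deposited table. It was the 1 rise of 24 filamentous growth genes (4.17% called, beside 2.52% of all genes).

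PTR2, the importer of di- and tripeptides, had levels of 3825 in Δscd6 and 1516 in the wild type in the authors' deposited table (1.34, SE 0.20, adjusted p = 2.7e-08). It was the only rise among 42 nitrogen genes (2.38% called, beside 2.52% of all genes). The glutathione transporter gene OPT1 (0.68, adjusted p = 0.0496) and the Cys-Gly dipeptidase gene DUG1 (1.08, 0.00549) rose in the authors' deposited table, while ECM38, which starts glutathione breakdown in the vacuole, fell (-0.92, 0.0042); these 3 were chosen after their values were seen. Of 15 zinc and copper genes 5 rose and none fell (33.3% called, beside 2.52% of all genes), with a median of 0.49 (0.21 with totals made equal) in the authors' deposited table. Beside both CUP1 copies these were ZPS1, a zinc-regulated wall protein gene (0.94, adjusted p = 0.00183), the reductase gene FRE7 (0.91, 0.00458) and ZRT3, the vacuolar zinc exporter gene (0.79, 0.0102), in the authors' deposited table. ZRT1, the high-affinity zinc importer gene, gave 0.49 (0.292) in the authors' deposited table. IMD2, an IMP dehydrogenase of guanine nucleotide synthesis, had levels of 2170 in Δscd6 and 873 in the wild type in the authors' deposited table (1.31, SE 0.22, adjusted p = 6.7e-07). It was the only call of 37 purine, pyrimidine and one-carbon genes (2.7%, beside 2.52% of all genes). Of its 31-base windows, 49.8% are repeated, so it may share reads with its paralogs.

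Single rises closed the set. HUL4, which encodes a ubiquitin ligase of the HECT type, had levels of 379 in Δscd6 and 137 in the wild type in the authors' deposited table (1.47, SE 0.23, adjusted p = 2.9e-08). YCH1, a phosphatase gene, rose by 1.34 (adjusted p = 0.0378), and the subtelomeric YHR214W by 1.35 (0.0126), in the authors' deposited table. HXT5 (0.91, adjusted p = 0.0221) was the third rise among 24 hexose transporter genes in the authors' deposited table. Of that list 12.5% was called, beside 2.52% of all genes, and its median was -0.01. Its other rises were HXT6 and HXT7, whose reads may be shared. CTA1, the peroxisomal catalase gene, rose by 0.80 (adjusted p = 0.0269) as the 1 call of 33 oxidative stress genes (3.03%) in the authors' deposited table. MRPL20 rose by 0.92 (adjusted p = 0.0126) there, as the 1 call of 72 mitochondrial ribosomal protein genes (1.39%, list median 0.14). In the Gcn4 list of 58 (3.45% called), LEU4 of leucine synthesis rose (0.76, adjusted p = 0.0411) and ARG3 of arginine synthesis fell (-1.67, 0.0214) in the authors' deposited table. Some rises come as overlapping pairs whose reads may be shared without strand, such as RPE1 of the pentose phosphate pathway (1.14) with YJL120W (1.11) and the RNA polymerase I subunit gene RPA14 (1.07) with YDR157W (1.00) in the authors' deposited table; both pairs were picked after their values were seen.

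**Figure D3:**
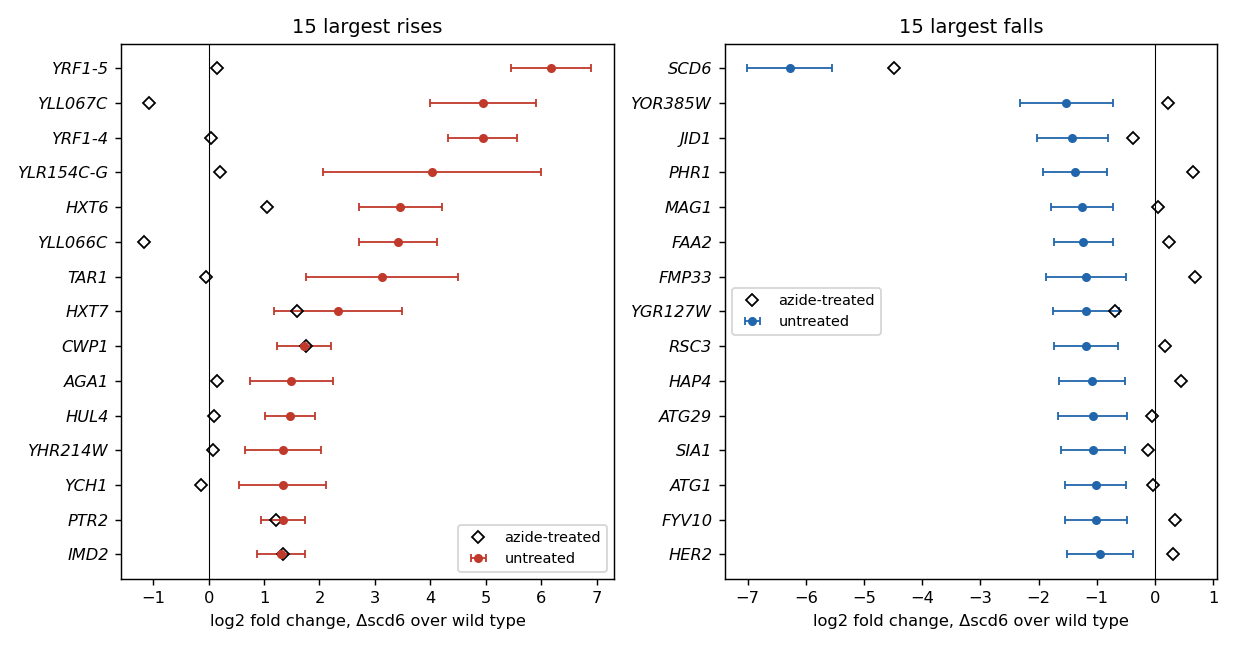
Log2 fold change of untreated Δscd6 over wild type for the 15 largest rises (left) and falls (right) among called genes with a mean normalised count of at least 100; filled points with bars are the untreated value and its interval of 1.96 implied SE, open diamonds the same strain difference in azide. For CWP1, PTR2, IMD2 and SCD6 the diamond lies on the same side of 0 as the point, while YRF1-5, YLL067C and HUL4 have diamonds of 0.16, -1.07 and 0.10.

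Among the 48 falls with a mean normalised count of at least 100, dubious frames left out, those other than SCD6 ran from -1.52 to -0.68 in the authors' deposited table. The uncharacterised gene YOR385W had levels of 165 in Δscd6 and 472 in the wild type in the authors' deposited table (-1.52, SE 0.41, adjusted p = 0.0167), and also fell in untreated Δsbp1 (-1.67), against the same wild type libraries. PHR1, the photolyase gene, had levels of 51.1 in Δscd6 and 132 in the wild type (-1.37, SE 0.28, adjusted p = 2.6e-04), and MAG1, a DNA glycosylase gene, had 113 and 269 (-1.25, SE 0.27, adjusted p = 5.4e-04), in the authors' deposited table. SHU1, another DNA repair gene, rose (1.18, adjusted p = 0.0378) in the authors' deposited table, and no list of repair genes was counted. JID1, a gene for a mitochondrial J-domain protein, had levels of 39.0 in Δscd6 and 105 in the wild type in the authors' deposited table (-1.42, adjusted p = 6.9e-04). RSC3, a DNA-binding subunit of the RSC chromatin remodeller, had levels of 573 in Δscd6 and 1297 in the wild type in the authors' deposited table (-1.18, SE 0.28, adjusted p = 0.00343). STH1, the ATPase of the same complex, fell by 0.69 (adjusted p = 0.0407) in the authors' deposited table and was named after its value was seen. FYV10, a subunit of the GID ubiquitin ligase that degrades gluconeogenic enzymes, fell by 1.01 (adjusted p = 0.0146), and HER2, a subunit of the mitochondrial glutamyl-tRNA amidotransferase, by 0.95 (0.041), in the authors' deposited table. A further 19 falls had a mean normalised count under 100, and in 3 of these, RRT15, YOR268C and the meiotic activator gene AMA1, the level in Δscd6 was under 1. AMA1 had levels of 0.123 in Δscd6 and 17.9 in the wild type in the authors' deposited table (adjusted p = 8.8e-05), and no fold is given against so low a level. The other named falls were FMP33 (-1.19), YGR127W (-1.18) and SIA1 (-1.06) in the authors' deposited table.

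Of 39 carbon genes that glucose represses 3 fell and none rose (7.69% called, beside 2.52% of all genes), although the list median was 0.19, with 26 members above 0, in the authors' deposited table. The 3 were the maltase gene MAL32 (-2.40, adjusted p = 0.0042; levels 8.12 in Δscd6 and 42.7 in the wild type), the gluconeogenic activator gene SIP4 (-1.92, 0.0277) and the fatty acyl-CoA synthetase gene FAA2 (-1.23, 5.4e-04) in the authors' deposited table. MAL12, a close copy of MAL32, gave 0.20 (0.864) in the authors' deposited table. HAP4, the activating subunit of the regulator of respiratory genes, had levels of 267 in Δscd6 and 564 in the wild type in the authors' deposited table (-1.08, SE 0.29, adjusted p = 0.0134). Its usual target groups gave no call: 0 of 37 respiratory chain and ATP synthase genes (median -0.08) and 0 of 23 tricarboxylic acid cycle genes (median -0.26) passed in the authors' deposited table.

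Of the 34 analysed genes of the autophagy list 3 fell and none rose (8.82% called, beside 2.52% of all genes), with a median of -0.11, in the authors' deposited table. The list leaves out ATG36, the receptor gene for autophagy of peroxisomes, which rose in the authors' deposited table (0.76, adjusted p = 0.0398). ATG29 had levels of 39.1 in Δscd6 and 82.1 in the wild type (-1.07, adjusted p = 0.0255), the kinase gene ATG1 85.8 and 174 (-1.02, 0.0138), and the lipid-transfer protein gene ATG2 219 and 373 (-0.77, 0.041), in the authors' deposited table. CHC1, the clathrin heavy chain gene, fell by 0.80 (adjusted p = 0.0304) as the 1 call of 35 endocytosis genes (2.86%) in the authors' deposited table. SWI4, the DNA-binding subunit of the G1 regulator SBF, fell by 0.77 (adjusted p = 0.0499) there, as the 1 call of 52 cell cycle genes (1.92%). SWI4 was the last gene inside the threshold, and the first outside it was YHR213W-B (adjusted p = 0.0505) in the authors' deposited table.

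Mitochondrially encoded genes had low values and a wide spread. Of 10 analysed 3 fell (30% called, beside 2.52% of all genes), 9 were below 0 and the median was -2.02 in the authors' deposited table. AI5_BETA (-3.55, adjusted p = 0.0378; levels 4.10 in Δscd6 and 48.0 in the wild type), AI1 (-2.90, 0.0377) and AI2 (-2.16, 0.0452), all encoded in introns of COX1, fell in the authors' deposited table. COX1 itself had levels of 59.0 in Δscd6 and 255 in the wild type and did not pass (-2.11, SE 0.72, adjusted p = 0.0728) in the authors' deposited table. In azide the median of the same 10 genes was 2.13, with 4 rises and no fall, in the authors' deposited table. These genes overlap within COX1, and the mean normalised count of AI1 and AI5_BETA was 17.1 and 30.6 in the authors' deposited table.

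The mRNA decay and translation machinery that Scd6 works with gave no call apart from SCD6 under the authors' own normalisation. This depended on scaling. With totals made equal, PAN2 (-0.89, adjusted p = 0.0031) and SKI2 (-0.85, 0.0012) passed as lower, by a normal test on the implied SE. None of 19 decapping and P-body genes passed, with a median of 0.17 (-0.10 with totals made equal) in the authors' deposited table. In the authors' deposited table DCP2 gave -0.20 (0.619), DHH1 -0.08 (0.921), EDC3 -0.38 (0.325), PAT1 0.36 (0.492) and XRN1 -0.57 (0.194), and LSM3 had the smallest p of the list (0.84, SE 0.36, adjusted p = 0.167). No gene passed among 11 deadenylase genes (median -0.06; smallest p for PAN2, -0.61, adjusted p = 0.11), or among 19 exosome, Ski and nonsense-mediated decay genes (median -0.04; SKI2, -0.58, 0.079), in the authors' deposited table. The same held for 25 stress granule and mRNA-binding protein genes (median -0.13), 10 cap-binding genes (-0.15), 19 initiation factor genes (-0.22; NIP1, -0.64, adjusted p = 0.107) and 17 elongation and termination factor genes (0.02) in the authors' deposited table. TIF4631, the gene of the eIF4G form that Scd6 binds, gave -0.20 (0.631), and CDC33, the gene of the cap-binding eIF4E, 0.14 (0.744), in the authors' deposited table. Of 20 RGG-motif protein genes the deleted SCD6 was the only call in the authors' deposited table. At the median SE, changes under 1.72-fold could not pass, though genes with a smaller SE passed below that, such as OPT1 (0.68, SE 0.21). A smaller shift of these mRNAs could thus have been missed.

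Ribosomal protein genes lay mostly above 0 without any call. Of 56 small-subunit genes 52 were above 0, with a median of 0.29, and of 81 large-subunit genes 79 were above 0, with a median of 0.32, in the authors' deposited table. With totals made equal these medians were 0.01 and 0.04, so the shift above 0 was not seen under that scaling. The nearest to a call was RPS14B, with 0.88 (SE 0.30, adjusted p = 0.0796) in the authors' deposited table. Medians in azide were 0.29 and 0.25, in Δscd6 over the wild type, in the authors' deposited table. None of the 118 ribosome biogenesis genes passed in the authors' deposited table, where their median was -0.09 and TIF6 came nearest (0.68, adjusted p = 0.0631). The 21 glycolysis and fermentation genes had no call and a median of 0.36 in the authors' deposited table, and 0.08 with totals made equal.

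Stress programmes were not called in untreated cells. None of 49 general stress genes (median -0.11), 43 chaperone genes (-0.14), 26 genes of the unfolded protein response (0.10), 34 proteasome genes (-0.13), 23 multidrug transport genes (-0.04) and 24 trehalose, glycogen and glycerol genes (-0.20) passed in the authors' deposited table. The nearest were SPI1, a wall protein gene (0.81, adjusted p = 0.0636), RPN9 of the proteasome lid (-0.77, 0.0588) and the polyamine exporter gene TPO2 (-0.92, 0.0544) in the authors' deposited table. Other lists without a call had medians near 0 in the authors' deposited table: 26 phosphate genes (0.10), 34 sulfate and methionine genes (0.09), 23 thiamine and pyridoxine genes (0.08), 26 ergosterol genes (0.04), 32 fatty acid and phospholipid genes (0.13), 17 histone genes (-0.06) and 34 meiosis genes (-0.08). The meiosis list leaves out AMA1 and SPO23, a gene named for sporulation, which fell in the authors' deposited table (SPO23 -2.25, adjusted p = 0.017). Over all 47 lists, 39 of 1473 analysed members passed (2.65%), beside the 2.52% of all genes.

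The change moved with gene length. Among 5329 genes with a mean normalised count of at least 100 and a length in the R64 reference, the median log2 change in the authors' deposited table was 0.30 under 300 bases (n = 148), 0.12 from 500 to under 1000 bases (n = 1399), -0.19 from 2000 to under 3000 bases (n = 791) and -0.37 at 4000 bases or more (n = 186). Falls were 0 of 422 genes from 300 to under 500 bases and 12 of 284 (4.23%) from 3000 to under 4000 bases, in the authors' deposited table. Across these genes Spearman's rho of length and log2 change was -0.406 in untreated Δscd6, -0.0912 in the same strain difference in azide and -0.12 in untreated Δsbp1; these are descriptions across genes, which share libraries and are not replicates. Length moved with the calls: the median was 2463 bases for falls with a count of at least 100, 954 for such rises and 1263 for all such genes. With the length trend removed, a step added after the data were seen, 99 genes were called, 60 higher and 39 lower, of which 81 were among the 160. YCH1, ATG1, HER2, MRPL20, SIP4, AI1, AI2, AGA2, SWI4, CHC1 and ATG2 were no longer called, with CHC1 at -0.44 (adjusted p = 0.37) and ATG2 at -0.41 (0.40). Level moved with it as well, the median being -0.06 at 300 to 1000 normalised counts and 0.34 at 10000 or more. The part of length, level, RNA quality and library preparation in these changes was not tested.

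**Figure D4:**
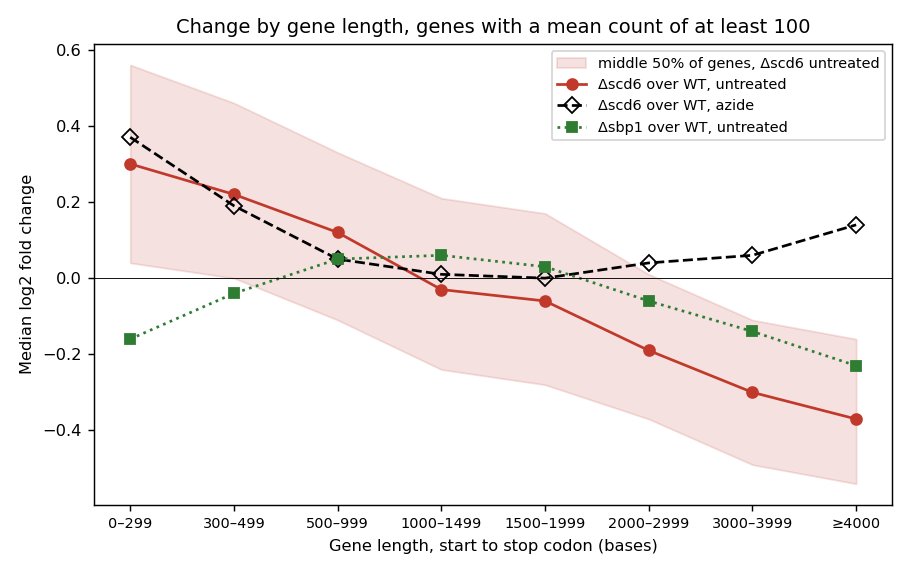
Median log2 fold change (vertical axis) by gene length in bases (horizontal axis, 8 classes) for genes with a mean normalised count of at least 100; the red line is Δscd6 over wild type untreated with the middle 50% of genes shaded, the dashed line the same in azide and the dotted line Δsbp1 over wild type untreated. The red line runs from 0.30 in the shortest class to -0.37 in the longest, while the azide line ends at 0.14.

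Azide-treated libraries of the same strains share no library with the untreated ones and show how far the changes recur. There, 274 genes (4.31%) passed in the authors' deposited table, 129 higher (2.03%) and 145 lower (2.28%) in Δscd6. Of the 160 genes changed in untreated cells, 20 were also called in azide, which is 12.5% of the untreated calls and 7.3% of the azide calls. Of the 92 rises 45 (48.9%) had the same sign in azide, beside 54.2% of all genes above 0, and their median was -0.018 in azide and 1.09 untreated in the authors' deposited tables. Of the 68 falls 29 (42.6%) had the same sign, with medians of 0.068 in azide and -0.981 untreated in the authors' deposited tables.

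The 7 rises called the same way in azide were CWP1 (1.75, adjusted p = 2.8e-09), PTR2 (1.22, 1.3e-06), IMD2 (1.34, 9.9e-07), DAN1 (1.98, 0.00443), COA2 of cytochrome oxidase assembly (1.21, 2.5e-04), ICY2 (0.77, 0.0327) and the sphingolipid synthesis gene TSC10 (0.84, 0.00513) in the authors' deposited table. CWP1 had levels of 4726 in azide-treated Δscd6 and 1402 in azide-treated wild type cells, and 10445 in untreated Δsbp1, where it was also called (1.95), in the authors' deposited tables. Of the falls, SCD6 and ECM38 were called the same way (ECM38 -0.76 in azide, adjusted p = 0.0135) in the authors' deposited table. Calls in the opposite direction in azide were made for the rises SNA4, YHR054C, HXT5, YKL053W, STP3, YOL085W-A and TIR4 and for the falls AI1, AI5_BETA and ROM1 in the authors' deposited table. TIR4 gave -1.68 in azide (adjusted p = 1.6e-05) and 1.12 untreated, and STP3, a zinc finger gene, -1.24 in azide (4.4e-04) and 1.01 untreated, in the authors' deposited tables. The difference between the effect in azide and that in untreated cells was tested from the implied SE with adjustment over 5841 genes, of which 284 (4.86%) passed, 147 higher (2.52%) and 137 lower (2.35%) in azide. It passed for 44 of 87 rises and 36 of 67 falls with a value. These genes were chosen by their untreated change, which is part of that difference, so both counts follow in part from the choice.

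**Figure D5:**
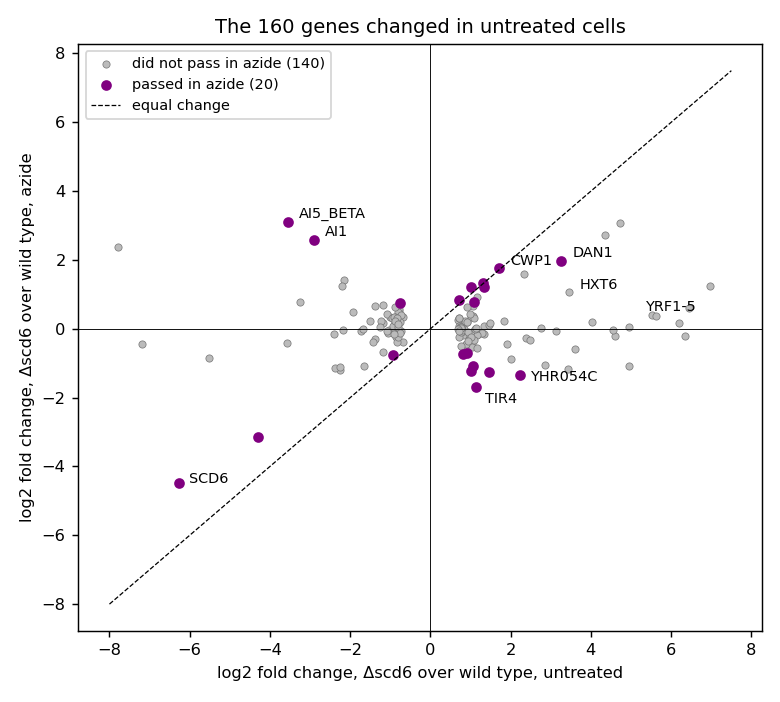
Log2 fold change of Δscd6 over wild type in azide (vertical axis) against that in untreated cells (horizontal axis) for the 160 genes changed in untreated cells; the dashed line marks equal change and purple points are the 20 genes also called in azide. SCD6, CWP1 and DAN1 lie on the same side of 0 on both axes, YRF1-5 near 0 in azide, and AI1, AI5_BETA and TIR4 on the other side of 0.

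Against the same untreated wild type libraries, untreated Δsbp1 gave 126 calls (1.98%) in the authors' deposited table, 98 higher (1.54%) and 28 lower (0.441%). The 4 genes called there and in Δscd6 were ENA2, HXT7, CWP1 and YOR385W. Because both comparisons share the wild type libraries, no overlap is read from them.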

How the data were processed

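Libraries were made from hot-phenol RNA with an NEBNext kit, per the labels' protocols, and grouped by their titles. STAR 2, Picard, featureCounts and edgeR are listed in the submitters' processing notes without roles. The sources used here do not give the genome build, strandedness, handling of reads with several matches or depth per library.

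The data were 7 comparison tables. Per the file headers each gives, per gene, a mean normalised count (a signal over all 12 libraries), the fold change on a linear and a log2 scale, and p-values before and after adjustment. The signal deposited by the authors is the same in every table. The linear fold is a ratio as deposited by the authors, and the log2 value deposited by the authors is its logarithm. The p-values were taken as deposited by the authors, and their adjusted values equal a Benjamini-Hochberg adjustment to within 4.6e-08.

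Group levels were rebuilt from the signal and the fold changes, with loops through the wild type closing to within 0.001. The SE was the size of the log2 change divided by the normal quantile belonging to the p-value, and 248 genes whose log2 change was under 0.02 in size had none. Azide minus untreated differences were tested on these SE against a normal distribution. Names, neighbours, lengths and repeats came from the R64 RefSeq annotation, used without coordinates, to which 5764 of 6352 IDs matched by name; 97% of the lengths are multiples of 3, and all exclude untranslated regions. The implied SE, the test of azide minus untreated differences and the rebuilding of group levels were tried on simulated data, and the other steps were not. The simulated p-values came from the same normal test, so the trial could not show whether the deposited p-values follow one. The work used scipy 1.17.1, numpy 2.4.6, pandas 2.3.3 and matplotlib 3.10.9 in Python 3.11.15.

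The genes, the 47 lists and the tests were chosen with earlier results of these data known. Named genes are SCD6, SBP1, the genes beside SCD6 and HIS3; the 15 largest rises and falls among called genes with a mean normalised count of at least 100, dubious frames and non-coding RNA genes left out; and in each list up to 4 called members, or the 1 with the smallest p. Genes named beyond this rule, among them the members of the 5 repeated loci, the textbook members of the decay, translation, wall and mating lists, and the genes shown for azide, were chosen after their values were seen. Alternatives were other scalings, a minimum level, stricter thresholds and, added later, leaving out repeated genes and removing the trend with length. The results of 1 gene and 1 list are not reported here.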

Additional observations from a re-analysis of the deposited data

Results flagged for a closer look

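The difference between Δscd6 and the wild type was itself compared between azide-treated and untreated cells, and 39 of the 86 named genes with a value passed that test (adjusted p under 0.05; 4.86% of all 5841 genes tested did). The values below are the log2 change in azide minus that in untreated cells, derived from the authors' deposited tables. In the repeated loci the strain difference was lower in azide, by -6.03 for YRF1-5, -6.03 for YLL067C, -4.89 for YRF1-4, -4.59 for YLL066C, -5.26 for CUP1-1, -4.60 for CUP1-2, -3.18 for TAR1 and -2.40 for HXT6. It was also lower for TIR4 (-2.80), PAU13 (-2.65), HXT5 (-1.62), SPI1 (-1.60), FIG2 (-1.47), HUL4 (-1.36), FIT1 (-1.34), ZPS1 (-1.31), TPO2 (-1.27), PHO91 (-1.05) and CTA1 (-0.97).

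It was higher in azide for the mitochondrial intron genes AI5_BETA (6.66), AI1 (5.49) and AI2 (3.58). Among genes that fell in untreated Δscd6 it was higher for SIP4 (2.40), MAL32 (2.24), PHR1 (2.03), FMP33 (1.88), YOR385W (1.75), HAP4 (1.52), FAA2 (1.47), RSC3 (1.36), SWI4 (1.36), FYV10 (1.35), MAG1 (1.32), CHC1 (1.28) and HER2 (1.26). The deleted SCD6 gave 1.79, with levels of 35.9 in azide-treated Δscd6 and 807 in azide-treated wild type cells, beside 13.6 in untreated Δscd6 and 1054 in untreated wild type cells. Genes not called in untreated cells were SWI5 (1.20), RPN9 (1.14) and SKI2 (1.01). These genes were named from the untreated result, so a smaller difference in azide follows in part from that choice.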

How the results depend on the processing

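No called gene named by the rule changed sign under the alternatives run, but scaling to equal totals turned the balance of calls and the sign of list medians. It gave 1244 changed genes, 63 up and 1181 down, 130 of them among the 160, with 234 list members called in place of 39 and 5 lists with a median above 0 in place of 25 (decapping and P-body genes -0.10 in place of 0.17, mating genes -0.23 in place of 0.05, mitochondrial ribosomal protein genes -0.14 in place of 0.14). Under it CTA1, HXT5, LEU4, KRE6 and AGA2 were no longer called, and 17 named genes passed that had not passed before. SBP1, ANT1, PAN2 and SKI2 were among the genes gained. Genes with a mean normalised count of at least 100 gave 102 (61 up, 41 down). An adjusted p under 0.01 gave 59 (42 up, 17 down), 17 list members and 173 calls in azide. A fold of at least 2 gave 92 (58 up, 34 down). Removing the length trend, chosen after seeing the data, gave 99 (60 up, 39 down). SWI4 was lost with the median gene set to 0 and with the minimum level. Why these counts moved was not tested, except that stricter rules test or keep fewer genes by construction. Setting the median gene to 0 (169, 105 up) and leaving out repeated genes among those matched to the reference (131) stayed within 1.5 times the count. No paired analysis was possible because the tables hold no values per library; for the same reason leaving out each replicate and the replicate block were not run. Depth is unknown, and 39 calls have a mean normalised count under 100, where the median SE was 0.488.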
